A study of Mus musculus with 2 samples.

Results

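Atoh1, Spdef, Gfi1, Klf4, Neurog3 and Neurod1, which set the secretory lineages of the intestinal epithelium, and Dll1, Dll4, Notch1 and Hes1 of the Notch pathway were followed in the colon of mice with and without the prostaglandin E2 receptor EP4 in the intestinal epithelium. The 10 genes were listed by name as regulators of the secretory cells that the study examined, with earlier results of these data known, and were found through the RefSeq accession of the probes. They had 11 probes, and all 10 were among the 14679 genes with a value. Both groups were C57BL/6 mice carrying Villin-Cre, a transgene in which the villin promoter drives Cre recombinase in the epithelium of the intestine. Controls had Villin-Cre alone, and EP4 cKO mice also had EP4flox/flox, the 2 floxed alleles of EP4. By the study's methods the mice were 8 weeks old and whole colon was taken, so that stroma, muscle and immune cells were measured with the epithelium. Each genotype was measured on 1 array, by the labels from RNA combined from 3 pools of colon, so no spread between mice can be given and no difference below was tested.

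The colonic crypt makes absorptive colonocytes and secretory cells from the same progenitors. A cell that displays the ligands Dll1 or Dll4 activates the receptor Notch1 on its neighbours. Cleaved Notch then joins the DNA-binding protein Rbpj and switches on Hes1, a repressor of Atoh1, and the neighbour takes the absorptive fate. Cells that escape this signal keep Atoh1. Downstream of it, Spdef and Klf4 act in goblet cell maturation, Gfi1 keeps cells on the goblet side, and Neurog3 followed by Neurod1 makes the hormone-secreting enteroendocrine cells.

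The promoters of the 3 proneural factors Atoh1, Neurog3 and Neurod1 are shown because Hes repressors and proneural factors are known to bind short motifs in such regions. Each window holds 300 bases around the transcription start, most of them upstream of it, from RefSeq on GRCm38.p6, 5′ to 3′ on the strand of the gene. Capitals mark CACNAG, the N box bound by Hes proteins, on either strand. The windows lie at chr6:64728875-64729174 (plus strand) for Atoh1, chr10:62132840-62133139 (plus strand) for Neurog3 and chr2:79456587-79456886 (minus strand) for Neurod1.
Atoh1: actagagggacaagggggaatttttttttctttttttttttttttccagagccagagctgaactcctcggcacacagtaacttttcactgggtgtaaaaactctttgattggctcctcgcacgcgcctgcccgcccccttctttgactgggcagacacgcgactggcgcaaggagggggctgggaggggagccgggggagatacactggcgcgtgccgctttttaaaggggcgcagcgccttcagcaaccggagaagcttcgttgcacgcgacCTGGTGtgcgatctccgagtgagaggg
Neurog3: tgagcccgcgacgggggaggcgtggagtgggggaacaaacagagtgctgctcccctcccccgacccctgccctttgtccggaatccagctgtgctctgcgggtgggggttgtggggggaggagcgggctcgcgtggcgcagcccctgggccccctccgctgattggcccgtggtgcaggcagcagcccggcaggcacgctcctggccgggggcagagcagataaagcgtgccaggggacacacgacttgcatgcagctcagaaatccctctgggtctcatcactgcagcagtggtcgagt
Neurod1: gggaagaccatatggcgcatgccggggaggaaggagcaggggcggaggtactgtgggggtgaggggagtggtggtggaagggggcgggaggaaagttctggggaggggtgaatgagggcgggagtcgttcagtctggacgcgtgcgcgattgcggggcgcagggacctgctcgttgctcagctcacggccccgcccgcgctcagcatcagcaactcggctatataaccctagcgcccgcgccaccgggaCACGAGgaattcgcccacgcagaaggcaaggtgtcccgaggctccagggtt
The N box letters were present once in the Atoh1 window and once in the Neurod1 window, and were not in the Neurog3 window. No window was available for Hes1, so its promoter was not searched for any motif. The other 9 members had 11 windows, since Dll1 and Gfi1 had 2 each. CACNAG was in 5 of these 11 (those of Atoh1, Dll4, Neurod1 and Notch1 and 1 of Dll1) and in 42.5% of all windows. The RBPJ core TGGGAA was in the Spdef window alone of these 11, against 25.6% of all windows. The E box CANNTG, the motif of the proneural factors, was in 7 of the 11 and in 72.3% of all windows. The cyclic AMP response element TGACGTCA was in none of the 11 and in 1.79% of all windows, and TGACG, which is part of it, was in those of Klf4 and Spdef and in 20.8% of all windows. These matches are letters in a window and not measured binding.

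Signals below are processed spot intensities scaled to a trimmed mean of 2500 on each array, and a log2 ratio is EP4 cKO over Villin-Cre. The ± after a log2 ratio is the error that the scanner software assigns to the signals of both arrays, not a spread between mice. A gene was counted as higher or lower past 2-fold. A signal that was not well above background was held at the lowest signal well above background on its array if that was higher (a floor of 125.4 on the control array and of 57.8 on the other), and its ratio is then a bound. Signals of different probes cannot be set against each other. In all, 25683 of 56593 probes (45.4%) were well above background in Villin-Cre and 29177 (51.6%) in EP4 cKO. The median log2 ratio of all genes was -0.10, and the middle 50% of genes lay between -0.45 and 0.18. The EP4 gene Ptger4 did not separate the arrays: its brighter probe read 6227 in Villin-Cre and 5661 in EP4 cKO (log2 ratio -0.14), and its other probe read 393 and 592 (log2 ratio 0.59). Where these probes lie relative to the floxed part of the gene was not analysed here, so they do not check the deletion, and the directions rest on the sample labels. The tissue label was checked against markers: Epcam, Cdh1 and Vil1 of the epithelium were well above background in both samples. Of 12 smooth muscle markers 9 had a value, their summed signal being 36278 in Villin-Cre and 53685 in EP4 cKO. Past 2-fold, Cnn1 and Myocd of these 9 were lower and Tpm2 was higher, beside 7.98% and 4.88% of all genes. Myocd was a bound (log2 ratio -1.70), and with 1 floor for both arrays it was -0.59, within 2-fold. With E1A scaling, described below, 1 of the 9 was lower and 5 were higher, beside 333 and 5988 of all 14679 genes. Myh11 was near background in both samples.

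Of the 10 genes, Hes1 and Neurod1 were lower in EP4 cKO by more than 2-fold, none was higher by more than 2-fold, and 8 lay within 2-fold. Across all genes 7.98% were lower past 2-fold (1171 genes) and 4.88% were higher (717 genes). Past 1.5-fold, 3 of the 10 were lower (Hes1, Neurod1 and Dll4) and none higher, beside 18.7% and 9.86% of all genes, and past 3-fold none was lower or higher, beside 3.73% and 2.21%. Over genes measured on both arrays, 2 of 9 members were lower and none higher past 2-fold, beside 6.26% and 4.05% of 12808 genes. The median log2 ratio of the 10 was -0.06, beside -0.10 for all genes. The split of all genes depended on the scaling. It was 942 higher and 921 lower when arrays were scaled to their 75th percentile, 881 and 979 with the trimmed mean taken over all spots, 602 and 395 with normexp and quantile normalization, 1120 and 707 with a loess fit on signal, and 5988 and 333 with the E1A control spots. The median of all genes was higher than in the values given here by 0.10, 0.10, 0.10, 0.13 and 0.99 in that order, so the genes are also given below relative to that median. Counts given below with E1A scaling are to be read beside 5988 higher and 333 lower of all 14679 genes, not beside 4.88% and 7.98%.

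**Figure D1:**
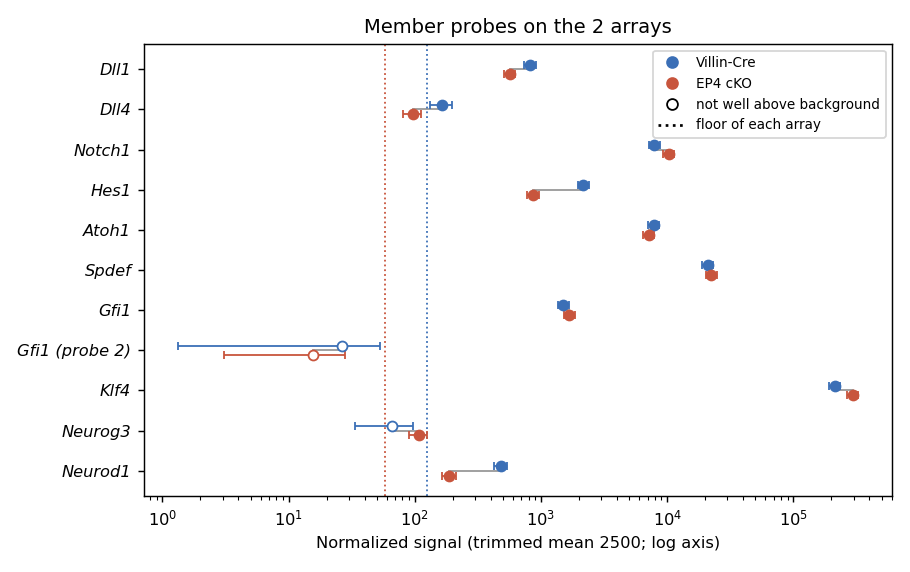
Scaled signal (log axis) of each of the 11 probes of the 10 genes for both genotypes. Bars are the scanner software's error, cut off at the bottom where the error exceeds the signal, open symbols are not well above background, and dotted lines mark the lowest signal well above background on each array (125.4 and 57.8). Hes1 and Neurod1 are the probes whose EP4 cKO signal sits furthest below the Villin-Cre signal among those measured on both arrays, and Atoh1, Spdef and the bright Gfi1 probe nearly coincide.

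The ligands Dll1 and Dll4 had lower signals in EP4 cKO, both within 2-fold. Dll1, the main ligand on secretory progenitors together with Dll4, read 819 in Villin-Cre and 566 in EP4 cKO, a log2 ratio of -0.53 ± 0.21. Dll4, which is also made by endothelium, was dim on both arrays, at 165 and 96.9 (log2 ratio -0.77 ± 0.37). Probes measured on both arrays were put into 10 bins of equal size by signal, to show what other probes of like signal read. The median log2 ratio was -0.24 in the bin of probes that held Dll1 and -0.50 in the dimmest bin, which held Dll4. In that dimmest bin 17.9% of probes were lower past 2-fold and 0.04% higher. Its probes had to pass a floor of 125.4 in Villin-Cre but only 57.8 in EP4 cKO. This tilts the bin toward lower ratios, so it gives no neutral reference for Dll4. Relative to the median of all genes, Dll1 ran from -0.43 to -0.16 and Dll4 from -0.67 to -0.12 over 9 ways of scaling and filtering, and both turned positive with E1A scaling on the plain scale (0.52 and 0.29). Endothelial content gave no clear reading, because 13 of 20 endothelial markers, Cdh5 among them, were without a value on either array, and the median of the other 7 was 0.07. Pecam1, a junction protein of endothelium, read 172 and 152 (log2 ratio -0.18). The part of endothelium in the Dll4 value was not tested.

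Notch1, the receptor, was higher in EP4 cKO and within 2-fold. It read 7926 in Villin-Cre and 10327 in EP4 cKO, a log2 ratio of 0.38 ± 0.20. Probes of like signal had a median of -0.08. The value stayed above that of the median gene in all 9 settings, by 0.41 to 0.75, and with E1A scaling it passed 2-fold at 1.44. Notch1 is also used by T cells and other leukocytes, and 5 of the 15 leukocyte genes with a value were higher past 2-fold in EP4 cKO (4.88% among all genes) with none lower. The higher count was 10 with E1A scaling, 8 with loess, 7 with the 75th percentile and 4 with normexp and quantile normalization. The 5 higher in the values given here were Gzma, Gzmb, Nkg7, Itgax and Cd3g, genes of cytotoxic, myeloid and T cells. Of the 15, 9 were above 0 and 5 below. Other T cell and myeloid genes were among those below: Cd3d (-0.79), Csf1r (-0.79) and Cd68 (-0.09). On the probe of largest change Cd3d was 0.90 and Cd3e -0.79, so the list gave no uniform rise of these cell types. Ptprc, the pan-leukocyte antigen CD45, read 416 and 813, within 2-fold, and the T cell gene Cd3e read 3069 and 2861. The part of leukocytes in the Notch1 value was not tested.

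Hes1, the repressor through which Notch holds Atoh1 down, was lower in EP4 cKO by more than 2-fold. Its single probe read 2170 in Villin-Cre and 869 in EP4 cKO, so that it dropped by 59.9%, a log2 ratio of -1.32 ± 0.21. In its bin of probes with like signal the median was -0.15 and 4.69% were lower past 2-fold. Relative to the median of all genes Hes1 lay between -1.22 and -0.95 over the 9 settings. On the plain scale it was below 0 in all 9 and past 2-fold in 7: with normexp and quantile normalization it was -0.96, and with E1A scaling -0.26. As this is RNA of a whole tissue, fewer cells that make Hes1 and less Hes1 RNA per cell cannot be told apart. Fibroblasts, which also make Hes1, showed 9 of 10 marker genes with a value lower past 2-fold (7.98% among all genes), the summed signal of those 10 being 17205 in Villin-Cre and 2458 in EP4 cKO. Decorin (Dcn) alone read 6006 and 110. The part of fibroblasts in the Hes1 value was not tested.

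**Figure D2:**
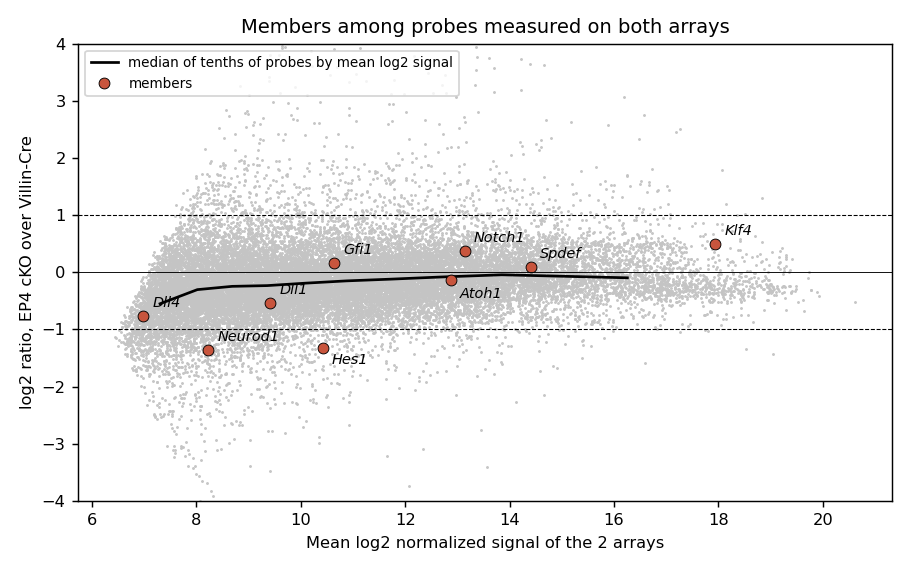
Log2 ratio, EP4 cKO over Villin-Cre, against mean log2 scaled signal for probes well above background on both arrays (grey), with the members measured on both arrays named. The line joins the medians of 10 bins of equal size by signal, dashed lines are 2-fold, and 60 probes outside the vertical range are not drawn. The medians run from -0.50 in the dimmest bin to -0.04 in the ninth and -0.09 in the brightest, Hes1 and Neurod1 lie below the lower dashed line, and Notch1 and Klf4 lie above the line of medians.

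Atoh1, the factor that commits progenitors to every secretory lineage, was close to level between the genotypes. It read 7803 in Villin-Cre and 7148 in EP4 cKO, a log2 ratio of -0.13 ± 0.20, beside a median of -0.08 for probes of like signal. Its sign was not settled: relative to the median of all genes it ran from -0.09 to 0.24, and on the plain scale it was 0.03 with the 75th percentile and 0.93 with E1A scaling. Hes1 was thus past 2-fold lower in the sample where the signal of Atoh1, a gene it represses, differed by less than the error that the scanner software assigns.

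Spdef and Klf4, the factors of goblet cell maturation, were not lower in EP4 cKO. Spdef read 20965 and 22377, a log2 ratio of 0.09 ± 0.20, which turned to -0.03 with normexp and quantile normalization and passed 2-fold with E1A scaling (1.15). Relative to the median of all genes it ran from -0.03 to 0.46. Klf4, which is also made by differentiated cells of the crypt surface, read 211759 and 297658, a log2 ratio of 0.49 ± 0.20. The Klf4 value stayed above that of the median gene in all 9 settings, by 0.58 to 0.86, and passed 2-fold with E1A scaling alone (1.55). Gfi1, a zinc finger repressor, read 1506 and 1680 on its brighter probe, a log2 ratio of 0.16 ± 0.21 (1.21 with E1A scaling), and it ran from 0.17 to 0.53 relative to the median of all genes. The other Gfi1 probe read 26.6 and 15.5 and stayed near background in both samples, so it gives no ratio. Gfi1 is also expressed by leukocytes, and the part of the leukocyte genes described above in its value was not tested.

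Neurog3 and Neurod1 act one after the other in the enteroendocrine lineage, and they were not measured equally well. Neurog3, made briefly by endocrine progenitors, read 65.7 in Villin-Cre, which was not well above background, and 107.7 in EP4 cKO, which was. The EP4 cKO signal lay below the floor of the Villin-Cre array, so the bound does not exceed 1 and Neurog3 has no measured direction. Relative to the median of all genes it ran from -0.05 to 1.08 over the 8 settings that give it a value. Neurod1, which follows Neurog3 and drives endocrine differentiation, was 2.56-fold lower in EP4 cKO at 479 and 187 (log2 ratio -1.35 ± 0.25). It lay in a dim range, where probes of like signal had a median of -0.31, with 12.8% lower and 2.1% higher past 2-fold. The unequal floors of the arrays can tilt dim bins toward lower ratios, so this median may not be a neutral reference. Over the 9 settings Neurod1 lay between -1.25 and -0.67 relative to the median of all genes. On the plain scale it was below 0 in all 9 and past 2-fold in 7, with -0.67 after normexp and quantile normalization and -0.30 with E1A scaling.

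**Figure D3:**
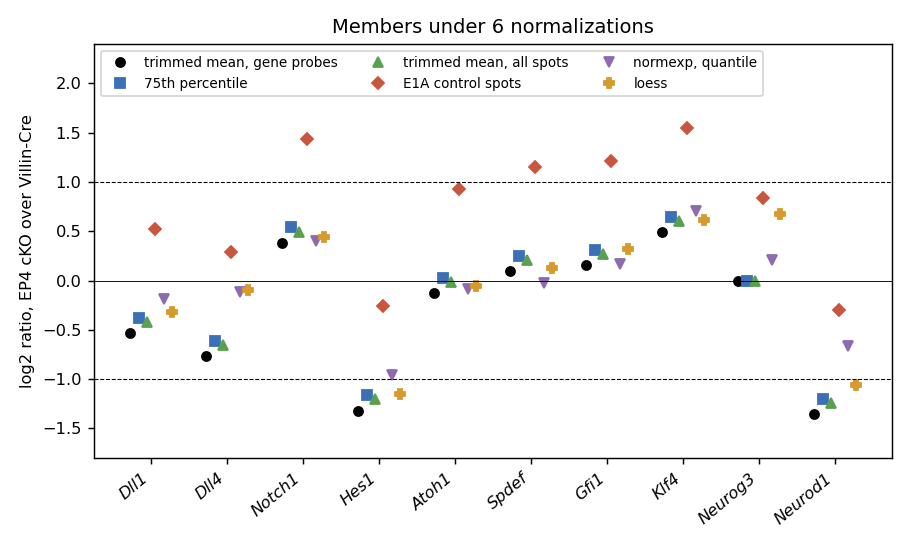
Log2 ratio of each of the 10 genes, EP4 cKO over Villin-Cre, under 6 normalizations, the trimmed mean over gene probes being that of the values reported. Dashed lines are 2-fold. Hes1 and Neurod1 are below 0 in each, from -1.32 to -0.26 and from -1.35 to -0.30, and every gene is highest with E1A scaling, where the median of all genes is 0.89.

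Of the other 69 Notch pathway genes listed, 61 had a value. Among these 61, 7 were lower past 2-fold in EP4 cKO and 1 was higher, beside 7.98% lower and 4.88% higher among all genes, and the median log2 ratio was -0.04. With normexp and quantile normalization 1 was lower and 1 higher. With E1A scaling 0 were lower and 27 higher, beside 333 and 5988 of all 14679 genes. The median of the 61 was above that of all genes by 0.06.

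Among ligands, Jag1 read 528 and 536 (log2 ratio 0.02). Jag2 read 164 in Villin-Cre and was not well above background in EP4 cKO, so that it was at least 2.84-fold lower, but with 1 floor for both arrays its log2 ratio was -0.39, within 2-fold. Both are ligands of the Jagged class, used less in crypt lateral inhibition than the Delta ligands. Among receptors, Notch4, a receptor mainly of endothelium, was higher at 3980 and 8596 (log2 ratio 1.11) and passed 2-fold in every setting. Notch2, which acts with Notch1 in crypt progenitors, read 794 and 407 (log2 ratio -0.96, but 0.09 with E1A scaling), and Notch3 read 1780 and 1872 (log2 ratio 0.07). Notch2 and Notch3 were named after their values were seen.

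The genes that process, glycosylate or route ligand and receptor had a median of -0.12 over the 24 with a value, with 4 (16.7%) lower past 2-fold and none higher, beside 7.98% and 4.88% of all genes. Neurl1a, a ubiquitin ligase of ligands, read 1028 and 379 (log2 ratio -1.44). Mib2, another such ligase, read 9862 and 4924, just past 2-fold lower, with a log2 ratio of -1.16 on its other probe. Aph1c, a subunit of the gamma-secretase that cleaves Notch, read 678 and 271 (log2 ratio -1.32). Dtx1, a Notch-binding ubiquitin ligase and itself a Notch target, read 397 and 151 (log2 ratio -1.40). With normexp and quantile normalization these 4 ran from -0.98 to -0.64 and none passed 2-fold. With E1A scaling Mib2 turned to 0.05, and 9 of the 24 were higher past 2-fold, beside 5988 of all 14679 genes.

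Rbpj, the DNA-binding partner of Notch, was close to level at 1733 and 1527 (log2 ratio -0.18, and -0.07 on its other probe), and it turned to 0.87 with E1A scaling. Of the 20 nuclear partners with a value, 2 were lower past 2-fold and none was higher, beside 7.98% and 4.88% of all genes, and with E1A scaling 0 were lower and 8 higher. Maml3, a coactivator of the Notch complex, read 855 and 390 (log2 ratio -1.13). Tle3, a Groucho corepressor used by Hes factors, read 3294 and 1009 (log2 ratio -1.71), and its other probe gave -0.97. Tle3 was the one gene of the 69 still lower past 2-fold with normexp and quantile normalization (-1.45).

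Other Notch targets lay on both sides of 0. Of 15 listed, 10 had a value, with a median of 0.05. Past 2-fold, Dtx1 was the one lower and none was higher, beside 7.98% and 4.88% of all genes. With E1A scaling none was lower and 5 were higher, beside 333 and 5988 of all 14679 genes. Nrarp, a feedback inhibitor induced by Notch, read 200 and 373 (log2 ratio 0.89) and passed 2-fold upward with the 75th percentile, the all-spot trimmed mean, loess and E1A scaling. Hes6 gave -0.46 and Hes7 gave 0.66, and Hey1 and Hes5, with bounds only, gave no measured ratio. Nrarp, Hes5, Hes6, Hes7 and Hey1 were named after their values were seen. No probe matched Olfm4, a stem cell gene induced by Notch.

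**Figure D4:**
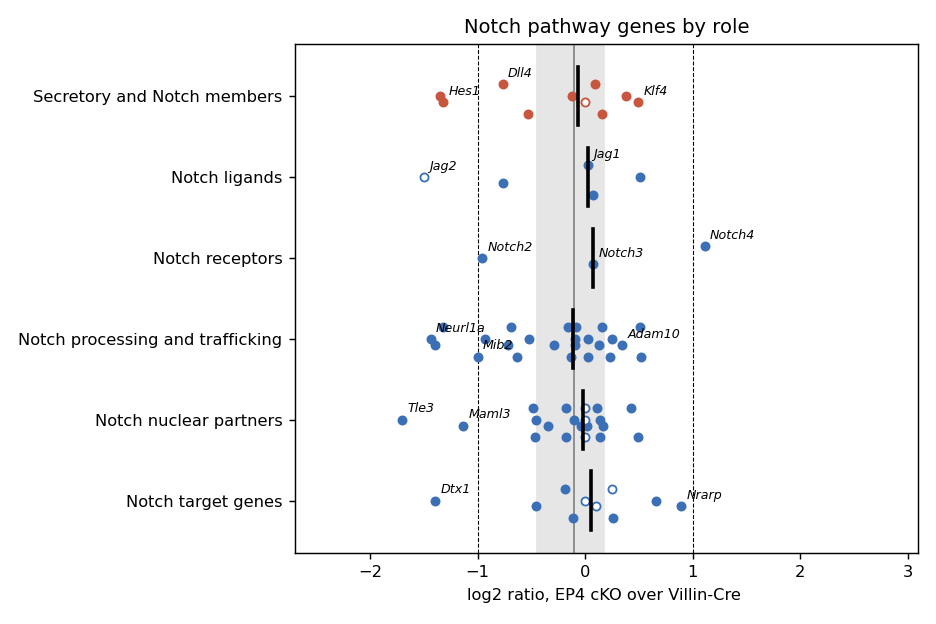
Log2 ratio, EP4 cKO over Villin-Cre, of each gene with a value in the 10 members and in the lists of other Notch ligands, receptors, processing genes, nuclear partners and targets. Filled symbols were measured on both arrays, open symbols are bounds, black bars are list medians, the grey band holds the middle 50% of all genes (-0.45 to 0.18) and dashed lines are 2-fold. List medians run from -0.12 to 0.07, inside the band, with Hes1, Neurl1a, Dtx1, Aph1c and Tle3 among the points below the lower dashed line and Notch4 above the upper.

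Further regulators of the secretory lineages were mostly within 2-fold. Of 31 with a value, 1 was higher and none lower past 2-fold, beside 4.88% and 7.98% of all genes, with a median of -0.07. With E1A scaling 15 were higher, beside 5988 of all 14679 genes. The 1 gene higher in the values given here was Bhlha15 (Mist1), which shapes the secretory apparatus of mature secretory cells, at 469 and 1667 (log2 ratio 1.83). The factors that act beside or after Neurod1 were dim, and 8 of the 15 with a value were measured on both arrays. Past 2-fold, 4 were lower and 1 was higher, beside 7.98% and 4.88% of all genes. With normexp and quantile normalization 0 were lower and 1 higher, and with E1A scaling 0 were lower and 5 higher. Rfx3 read 543 and 213 (log2 ratio -1.35) and Myt1 read 344 and 125 (log2 ratio -1.46). Both act in endocrine differentiation. Lmx1a, of serotonin-producing cells, was at least 4.08-fold lower, and Nkx2-2, of several endocrine types, at least 2.44-fold lower, both not well above background in EP4 cKO. With 1 floor for both arrays Lmx1a was at -1.10 on the log2 scale and Nkx2-2 at -0.17, within 2-fold. Hhex, a factor of somatostatin cells that many other cells also make, read 466 and 1519 (log2 ratio 1.70). Insm1, an endocrine zinc finger repressor named after its value was seen, read 1451 and 828 (log2 ratio -0.81, but 0.25 with E1A scaling).

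Of the 20 products of enteroendocrine cells with a value, 11 (55.0%) were lower past 2-fold, none was higher, and 16 were below 0, against 7.98% lower among all genes. The lower count was 7 with normexp and quantile normalization and 0, with 4 higher, with E1A scaling. The median log2 ratio was -1.07. Chga, the granule protein chromogranin A, read 21112 and 7326 (log2 ratio -1.53). Sst, which encodes somatostatin, read 6147 and 2003 (log2 ratio -1.62), and Tph1, which makes serotonin in enterochromaffin cells, read 914 and 371 (log2 ratio -1.30). Resp18 and Scg3, proteins of secretory granules, gave -1.77 and -1.44. Chga, Sst and Resp18 were still past 2-fold with normexp and quantile normalization, while Tph1 and Scg3 were not.

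Among hormones of the L cells, Pyy gave -0.63 and Gcg -0.28, which turned to 0.43 and 0.78 with E1A scaling, whereas Insl5, also of L cells, gave -1.28. Ghrl, which encodes ghrelin, was above 0 at 0.87. These 4 were named after their values were seen. Relative to the median of all genes, the median of the products lay between -0.97 and -0.57 over the 9 settings, and with E1A scaling it was -0.01 with none past 2-fold lower. Granule proteins such as Chga are also made by enteric neurons, and of the 8 neuronal and glial markers with a value 4 were lower past 2-fold (7.98% among all genes), among them Uchl1 at 1877 and 699, and 1 was lower with normexp and quantile normalization. The median log2 ratio of the 8 was -1.08, with 6 below 0 and 2 above, Snap25 (0.50) and Chat (0.35). The summed signal of the 8, which adds unlike probes, ran the other way, 40642 in Villin-Cre and 52995 in EP4 cKO. Their defining markers Ret and Sox10 were near background in both samples. The part of neurons in these values was not tested.

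Among goblet cell products none was lower past 2-fold. All 22 had a value, 5 (22.7%) were higher past 2-fold beside 4.88% of all genes, and the median was 0.45. The count of higher genes was 14 with E1A scaling. Muc2, the gel-forming mucin of goblet cells, read 222068 and 212341 (log2 ratio -0.06, and -0.19 on its other probe). Tff3, a trefoil peptide secreted with it, read 280741 and 167451 (log2 ratio -0.75). With E1A scaling both turned positive, to 0.99 and 0.31. The 5 higher genes were Retnlb and Ang4, which are antimicrobial and induced by microbes and inflammation, Reg4, Clca1 and Capn9. Ang4 read 1266 and 197441 (log2 ratio 7.28). Reg4, a lectin of deep crypt secretory cells, read 54128 and 158383 (log2 ratio 1.55), Clca1 gave 1.31 and Capn9 gave 1.14. Retnlb was not well above background in Villin-Cre at 95.9 and read 275441 in EP4 cKO, at least 2197-fold higher. All 18 genes of an interferon response list were higher past 2-fold in EP4 cKO as well, with a median of 5.47, and the part of that response in the goblet products was not tested.

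Tuft cell genes were too dim for a clear reading. Of 20 listed, 16 had a value and 6 were measured on both arrays. Dclk1, the usual tuft cell marker, read 139.9 in Villin-Cre, not well above background, and 142.3 in EP4 cKO. Avil, an actin-binding protein of tuft cells, read 353 and 907 (log2 ratio 1.36), and none of the list was lower past 2-fold. In the values given here 2 of the 16 (12.5%) were higher past 2-fold, beside 4.88% of all genes. With E1A scaling 11 were higher, beside 5988 of all 14679 genes. Pou2f3, the factor that specifies tuft cells and was named after its value was seen, had a bound that does not exceed 1.

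**Figure D5:**
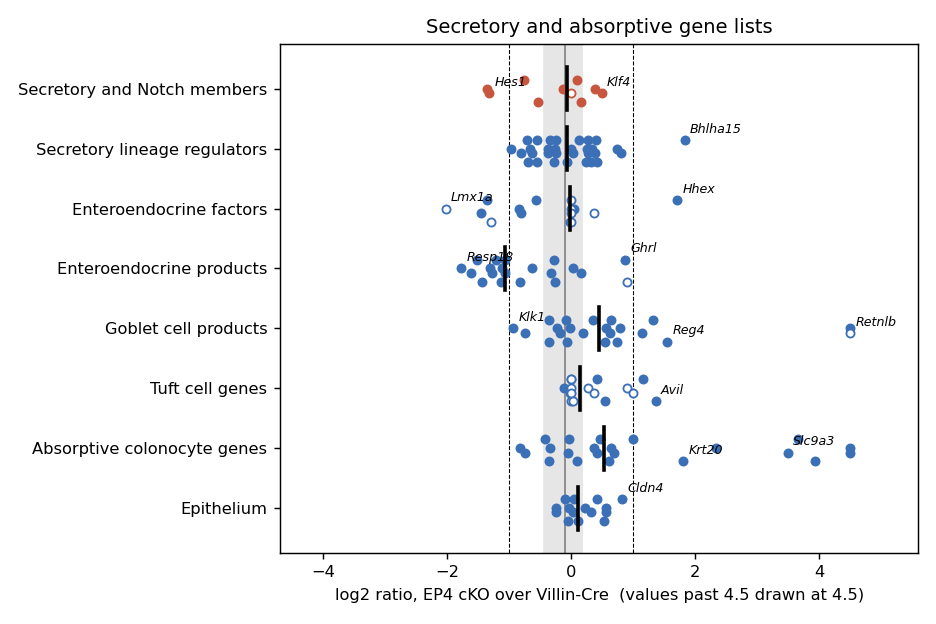
Log2 ratio, EP4 cKO over Villin-Cre, of the 10 members, of secretory and enteroendocrine factors, and of goblet, enteroendocrine, tuft, absorptive and general epithelial genes. Filled symbols were measured on both arrays, open symbols are bounds, black bars are list medians, the grey band holds the middle 50% of all genes, and values outside the drawn range are placed at its edge. The enteroendocrine products have a median of -1.07, the goblet products 0.45 and the tuft cell genes 0.15.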

How the data were processed

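Cy3-labelled colon RNA of Villin-Cre mice and of EP4 cKO mice was measured on 2 Agilent mouse expression arrays, 1 per genotype, and the groups were taken from the genotype labels. The deposited values are spot intensities, which the authors' scanner software (Feature Extraction 12.0.3.1 per the file headers, 11.5.1.1 in the submitters' processing notes) had background-subtracted and detrended. The authors' methods then scale each array to a trimmed mean of 2500 with 2% removed at each end. The deposited intensities are unscaled, so this step was repeated here over gene probes (factors 3.452 and 2.684) after control spots and outlier spots were left out and spots of a probe were averaged. No gene spot was saturated.

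Probes were named through their RefSeq accession (58.3% matched, 22909 genes). The gene value came from its probe of highest mean signal among probes with a value, and a bound that does not exceed 1 counted as a log2 ratio of 0. As each genotype has 1 array, nothing was tested, and the number of arrays limits the precision. Lists were described by counts and medians. All members were named. In each other list, up to 5 genes in each direction past 2-fold with all probes on the same side were named, with Muc2, Chga, Dclk1, Tff3, Rbpj, Jag1, Olfm4, Pecam1, Cdh5, Epcam, Cdh1, Vil1, Ptprc, Cd3e and Ptger4 whatever their values. A gene that this rule names is not reported here. The members and lists were chosen with earlier results of these data known. A comparison of protein sequences was planned and is not analysed here.

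The alternatives were 75th percentile scaling, the trimmed mean over all spots, scaling to the 7 E1A control probes, quantile normalization after normexp (offset 50), a loess fit of the log2 ratio on signal (span 0.3), 2 other filters on dim probes, 1 floor for both arrays, other probe rules, and folds of 1.5 and 3. The 9 settings named with ranges leave out the probe rules and the folds and include the values as reported. Calculations used Python 3.11.15, pandas 2.3.3, numpy 2.4.6, statsmodels 0.14.6, R 4.3.3 and limma 3.58.1, and were tested on simulated data.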

Additional observations from a re-analysis of the deposited data

How the results depend on the processing

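No paired analysis was possible because each genotype has 1 array and the labels carry no replicate numbers, and for the same reason no replicate could be left out. No direction of a called member reversed. With E1A scaling, 4 of the 10 members were higher past 2-fold and 0 lower. With normexp and quantile normalization 0 were lower, and past 3-fold 0 were lower. The median log2 ratio of the members was 0.015 with the 75th percentile, -0.0055 with the trimmed mean over all spots, 0.88 with E1A, 0.037 with loess, -0.13 over the genes measured in both samples and -0.016 without a filter on dim probes. Genes higher past 2-fold numbered 5988 with E1A, 1120 with loess and 1172 without the filter, and 1447 were higher past 1.5-fold and 325 past 3-fold. Genes lower past 2-fold numbered 333 with E1A, 395 with normexp and quantile normalization, 707 with loess and 7253 without the filter, and 2740 were lower past 1.5-fold and 548 past 3-fold. E1A control probes had an unscaled log2 ratio of -0.69 (-0.78 to -0.56 over 7 probes), and the cause of the gap to the other scalings was not tested. Signal over background limits Neurog3, Dll4, the tuft cell genes and many endocrine factors.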

Other observations

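Absorptive colonocyte genes, the fate that Notch signaling favours, had a median log2 ratio of 0.54 over 22 genes with a value, with 8 higher past 2-fold in EP4 cKO (17 with E1A scaling) and none lower, beside 4.88% higher and 7.98% lower among all genes. Clca4b read 477 in Villin-Cre and 35806 in EP4 cKO (log2 ratio 6.23), Emp1 read 4775 and 108405, Tmigd1 and Clca4a gave 3.94 and 3.65 on the log2 scale, and Slc9a3, the apical sodium-proton exchanger, read 1661 and 18703 (log2 ratio 3.49). Car1 and Car4, carbonic anhydrases of the same cells that were named after their values were seen, gave -0.42 and 0.09. Among 15 stem and progenitor genes with a value, Lgr5, a receptor of crypt base stem cells, was lower at 1541 and 723 (log2 ratio -1.09), Prom1 was higher (log2 ratio 1.27), and the median was -0.16. Among 15 proliferation genes 2 (13.3%) were lower past 2-fold, beside 7.98% of all genes, with none higher and a median of -0.44. The lower count was 1 with the 75th percentile, with normexp and quantile normalization and with loess. With E1A scaling it was 0, with 6 higher. Mki67, the proliferation antigen Ki-67, read 22683 and 10404 (log2 ratio -1.12). The calls of Mki67 and Lgr5 depended on the scaling: Mki67 was -0.97 with the 75th percentile and -0.07 with E1A scaling, and Lgr5 ran from -0.98 to -0.03 with the other 5 normalizations, within 2-fold in each. General epithelial genes had a median of 0.10 over 15 genes with none past 2-fold in either direction. With E1A scaling 12 of these 15 were higher and their median was 1.16, beside a median of 0.89 for all genes.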
